A study of Mus musculus with 6 samples.

Results

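Immature and repair Schwann cell genes were examined in the whole sciatic nerve of mice with and without Plekhg5. The set held 9 genes, Jun, Olig1, Runx2, Pax3, Id2, Ncam1, L1cam, Cdh19 and Clcf1. They were taken by gene symbol, with earlier results of these data known. All 9 were present among the 39174 genes of the tables, and 8 of them were among the 21285 genes tested for a difference between genotypes. RNA was taken from sciatic nerves of 3 wild-type mice (numbered 2, 4 and 5) and 3 Plekhg5-/- mice (numbered 2, 3 and 5). The sample records call the mice adult, and the study's text gives their age as 12 months. No treatment and no tissue-restricted allele is named, so that a difference cannot be assigned to loss of Plekhg5 in Schwann cells rather than in neurons or other cells. Libraries were made from poly(A) RNA with a SENSE mRNA-Seq kit (Lexogen) and sequenced on an Illumina NextSeq instrument.

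Immature Schwann cells are the cells of the developing nerve that have not yet chosen between wrapping 1 large axon in myelin and ensheathing several small axons. After a nerve is cut or crushed, Schwann cells leave the myelinating or non-myelinating state and become repair cells, which clear myelin, secrete trophic factors and guide regrowing axons. The transcription factor c-Jun, encoded by Jun, drives much of that program and opposes the myelin program. Olig1 and Shh are known for being switched on in repair cells although they are not part of normal Schwann cell development, whereas Ncam1, L1cam, Pax3 and Id2 are also used by immature cells. In an uninjured adult nerve, non-myelinating (Remak) Schwann cells keep Ncam1 and L1cam. In a whole nerve, fewer cells of a type and less RNA per cell cannot be told apart.

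The Plekhg5 transcript was measured first, as a check of the genotype labels. Wild-type nerves held 3.65 to 5.26 FPKM of it and Plekhg5-deficient nerves 0.0521 to 0.141 FPKM, and the means differed 39.1-fold. This was a log2 fold change of -2.26 with a standard error of 0.18 and passed the test (adjusted p = 0.0380 from limma). With any 1 library left out the direction was kept and the adjusted p was 0.0763 to 0.268. FPKM are fragments per kilobase of transcript, relative to the mapped fragments of the library. Values here are FPKM divided by 1 factor per library, which ranged from 0.745 to 1.12. Fold changes are differences of the mean log2(FPKM + 1), Plekhg5-deficient minus wild-type, and understate the change of low genes. Summed Schwann cell lineage markers were at 3377 to 6278 FPKM over the 6 libraries. Other cells contributed unequally. Summed skeletal muscle markers ran from 214 FPKM in Plekhg5-deficient nerve 3 to 37727 FPKM in Plekhg5-deficient nerve 5. Summed T-cell markers reached 137 FPKM in wild-type nerve 5 against 3.16 to 10.9 in the other libraries, summed neuron markers ran from 14.5 to 1176 FPKM with both nerves numbered 5 lowest, and summed erythroid markers were highest in Plekhg5-deficient nerve 5.

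The regulatory region of Jun is shown because the c-Jun protein binds its own gene through a variant of the AP-1 site, and the start of the Olig1 coding sequence because Olig1 was the member with the largest difference between genotypes. The Jun stretch covers the 250 bases before the start of the RefSeq transcript (chr4:95052223-95052472, minus strand, GRCm38.p6), with the letters TGACATCA in capitals. The Olig1 stretch covers the first 300 coding bases (chr16:91269877-91270176, plus strand, GRCm38), with the start codon in capitals.
Jun: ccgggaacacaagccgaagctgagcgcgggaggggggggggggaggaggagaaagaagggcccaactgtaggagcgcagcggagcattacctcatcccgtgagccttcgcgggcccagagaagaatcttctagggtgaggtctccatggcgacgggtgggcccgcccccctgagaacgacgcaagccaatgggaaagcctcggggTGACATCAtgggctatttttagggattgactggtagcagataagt
Olig1: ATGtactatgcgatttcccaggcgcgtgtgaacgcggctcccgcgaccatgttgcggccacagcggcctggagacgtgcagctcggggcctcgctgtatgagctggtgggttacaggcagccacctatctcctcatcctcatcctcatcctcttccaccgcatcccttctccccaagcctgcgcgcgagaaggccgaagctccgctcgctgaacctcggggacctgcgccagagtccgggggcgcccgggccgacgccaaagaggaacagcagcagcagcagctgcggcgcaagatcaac

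The motif TGACATCA, or its reverse complement TGATGTCA, lay 45 to 38 bases before the start of Jun. It was found in 962 of 32851 mouse promoters of that length (2.93%), and Jun was the 1 member that held it among the 4 members with a promoter in the table (Jun, Id2, Runx2 and L1cam). The AP-1 letters TGAGTCA or TGACTCA were in 4.46% of all promoters and in none of the 4, and the palindrome TGACGTCA was in 1.55% and in none of the 4. A match describes the letters alone and was not tested as a binding site. The Olig1 coding sequence lies in 1 exon and is 780 bases long without its stop codon. Of the 66-base stretches (the read length after trimming) of the Olig1 gene in the GENCODE annotation, 4.39% also occur in the gene Gm15966. How reads from these stretches were assigned was not tested.

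Levels in wild-type nerves placed the members in 3 ranges. Id2 (37.9 FPKM) and Cdh19 (37.3) were highest, followed by Jun (range 14.6 to 20.9) and L1cam (17.8), then Ncam1 (7.93). Clcf1 (2.25), Olig1 (1.27) and Runx2 (0.776) were low, and Pax3 was near 0 (0.0200). The libraries of neighbours in this order overlapped for Id2 and Cdh19, while Cdh19 and Jun did not overlap. Jun and L1cam overlapped, and L1cam and Ncam1 overlapped through the low L1cam value of nerve 5. FPKM are per length, so that genes can be set side by side.

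**Figure D1:**
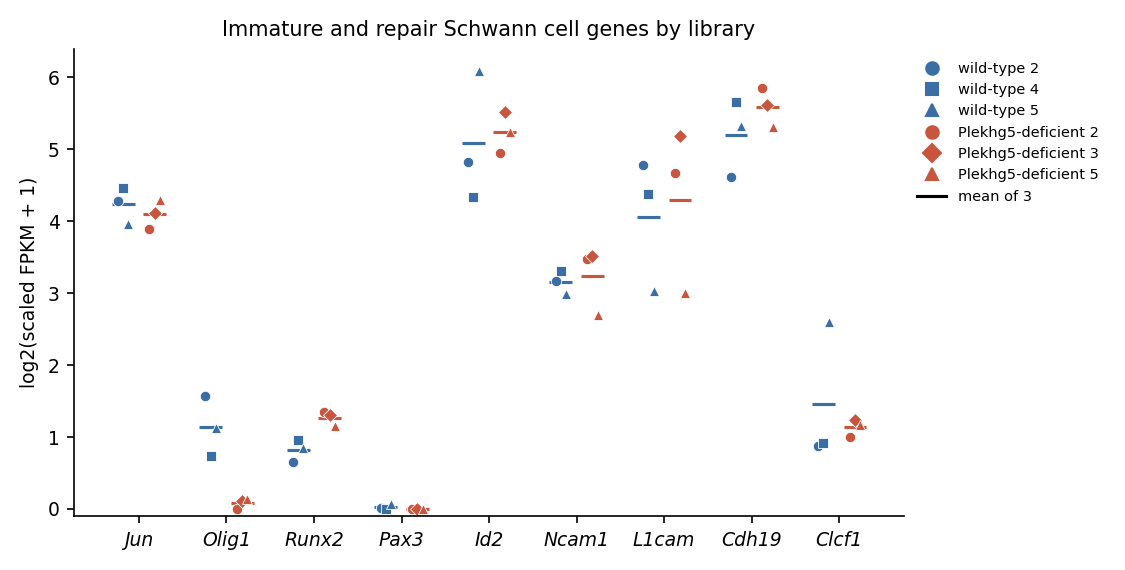
Level of each of the 9 genes in each library as log2(scaled FPKM + 1), with blue symbols for wild-type and red symbols for Plekhg5-deficient nerves and a bar for the mean of 3. The genotypes separate for Olig1 and Runx2, Pax3 lies at or near 0 in every library, and the low L1cam points are the nerves numbered 5.

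No member was called at an adjusted p under 0.05 (0 of 8 tested, from limma), where 8 of all 21285 genes tested were called (0.0376%), 2 of them lower (0.0094%) and 6 higher (0.0282%). For Olig1 and Runx2, 2 of 8, the unadjusted p was under 0.05, as for 5.11% of all genes. For 1 gene in 3 mice against 3, the smallest p of a two-sided exact permutation test is 0.1. Of the 8 log2 fold changes 3 were below 0 and 5 above 0, with a median of 0.11 beside 0.0065 over all genes tested. The genotypes did not overlap for Olig1, which was lower, and for Runx2, which was higher. Such lower values were found for 5.88% and such higher values for 5.69% of all genes tested. Olig1 passed the minimum of 0.1 FPKM through the wild-type nerves alone.

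**Figure D2:**
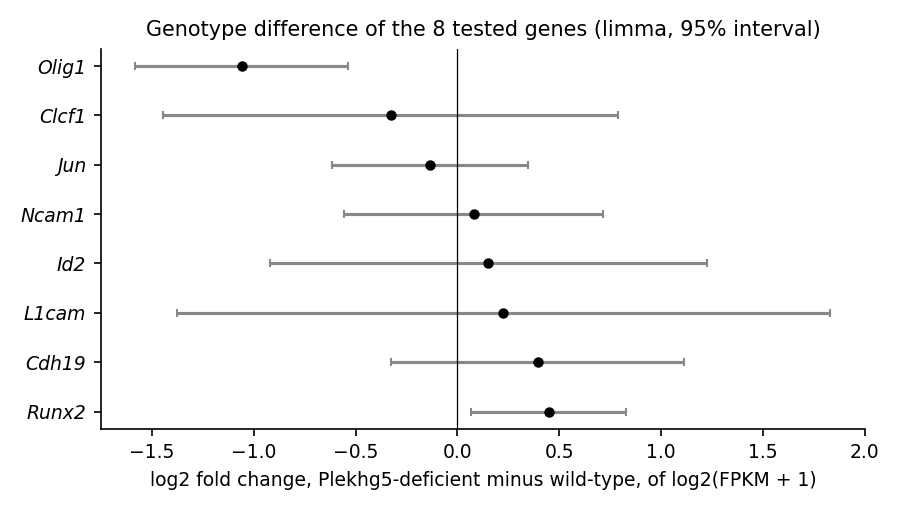
Difference of log2(FPKM + 1) between genotypes for the 8 genes tested, Plekhg5-deficient minus wild-type, with the 95% interval from limma. The intervals of Olig1 and Runx2 leave out 0 before adjustment, and those of L1cam, Id2 and Clcf1 are the widest.

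Jun (ENSMUSG00000052684, chr4:95049034-95052222), the gene of c-Jun, did not differ detectably. For Jun, wild-type nerves 2, 4 and 5 gave 18.4, 20.9 and 14.6 FPKM, while 13.8, 16.4 and 18.6 FPKM were found in Plekhg5-deficient nerves 2, 3 and 5. The groups overlapped, and nerve 5 was the lowest of the wild-type and the highest of the Plekhg5-deficient values. The mean ratio was 0.903 (log2 fold change -0.13, standard error 0.20, 95% interval -0.62 to 0.35, adjusted p = 0.980 from limma). An antisense gene that overlaps Jun, BC042782, was at 0.854 to 1.19 FPKM, and whether reads were assigned by strand is not stated in the sources used here.

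Partners of c-Jun in the AP-1 dimer and kinases of the Jnk cascade that activate it gave no call among 13 tested (0 of 13, median log2 fold change -0.14). Jund, a constitutive Jun protein, was at 50.9, 55.5 and 61.6 FPKM in wild-type and 45.1, 53.2 and 48.8 in Plekhg5-deficient nerves. Its groups overlapped, as did those of Atf2 and the kinase gene Map2k4, the next most abundant of the list. Fosb, an early response partner, was the 1 gene of the list whose genotypes did not overlap (0.802, 1.32 and 0.437 against 0.180, 0.358 and 0.329 FPKM), with an adjusted p of 0.972 from limma. Sox4, a transcription factor of immature Schwann cells, had the profile nearest to that of Jun among the genes of the lists (mean absolute difference 0.12 on the log2 scale over 6 libraries, beside a mean deviation of 0.18 of Jun itself).

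Olig1 (ENSMUSG00000046160, chr16:91269769-91271939) was the member with the largest difference. Its product is a basic helix-loop-helix factor best known from oligodendrocytes, the myelin-forming cells of the central nervous system. For Olig1, wild-type nerves 2, 4 and 5 gave 1.96, 0.669 and 1.18 FPKM, while 0, 0.0798 and 0.10 FPKM were found in Plekhg5-deficient nerves 2, 3 and 5. All 3 wild-type values lay above all 3 Plekhg5-deficient values. Wild-type libraries averaged 1.27 ± 0.651 FPKM and Plekhg5-deficient libraries 0.0601 ± 0.0530 FPKM (SD, n = 3 each), a 21.1-fold lower mean. The log2 fold change was -1.06 (standard error 0.22, 95% interval -1.58 to -0.54), and the adjusted p of 0.512 from limma over all genes missed the threshold.

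The 95% intervals that the authors' tables give for Olig1 correspond to whole fragments within 0.05 in all 6 libraries, when the interval is read as 2 standard deviations of a count. That reading gives 109, 25 and 28 fragments in the wild-type libraries, 162 in all, and 0, 4 and 3 in the Plekhg5-deficient libraries, 7 in all. These intervals cover counting error only. Those of wild-type nerves 2 and 4 did not overlap (1.59 to 2.34 and 0.401 to 0.937 FPKM).

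Oligodendrocyte markers were measured beside Olig1. Of the 7 markers 5 (Olig2, Mog, Mobp, Opalin and Ermn) had no overlap between genotypes and were lower in Plekhg5-deficient nerves, and none of the 7 was called (lowest adjusted p = 0.938 from limma). Of all genes tested, 5.88% were lower without overlap. Like Olig1, the markers Olig2, Mog, Opalin and Ermn passed the minimum of 0.1 FPKM through the wild-type nerves alone, so that their count is a description. Mobp, a myelin protein gene of oligodendrocytes, was at 14.0, 3.30 and 1.47 FPKM in wild-type and 0.379, 0.632 and 0.829 in Plekhg5-deficient nerves. Mog, which marks the outer oligodendrocyte membrane, was at 1.47, 0.342 and 0.107 FPKM against 0.0332, 0 and 0. These 5 markers were highest in wild-type nerve 2, which was also the highest library of Olig1. Olig2, the closest relative of Olig1, gave 0.305, 0.0477 and 0.0374 FPKM in the wild-type libraries and was listed at 0 in all 3 Plekhg5-deficient libraries. The remaining markers, Gjc3 and Bcas1, are also expressed by Schwann cells and ran from 15.1 to 33.4 and from 94.7 to 159 FPKM, with overlapping groups. The summed level of the list, which these genes dominate, was 139 to 190 FPKM in wild-type and 119 to 192 in Plekhg5-deficient nerves.

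Mog was also the list gene with the profile nearest to that of Olig1 (mean absolute difference 0.24, beside a mean deviation of 0.53 of Olig1 itself). The part of the oligodendrocyte transcripts in the Olig1 difference was not tested. Leaving out each library in turn gave log2 fold changes of Olig1 between -1.24 and -0.84.

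**Figure D3:**
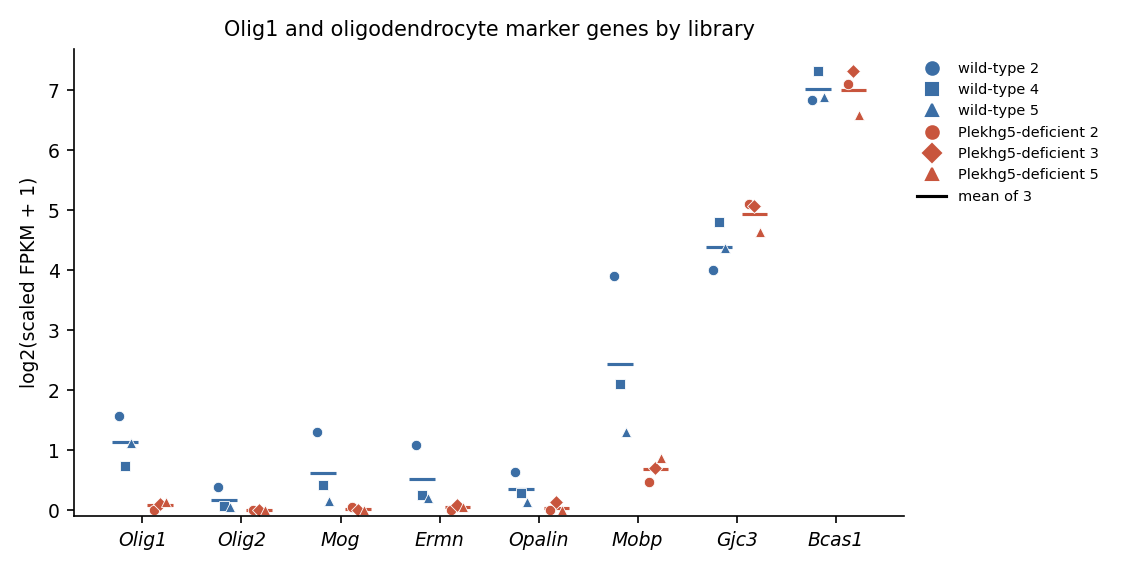
Olig1 and 7 oligodendrocyte marker genes in each library as log2(scaled FPKM + 1), with blue for wild-type, red for Plekhg5-deficient nerves and a bar for the mean of 3. Olig1, Olig2, Mog, Ermn, Opalin and Mobp lie lower in all Plekhg5-deficient libraries, while Gjc3 and Bcas1 overlap.

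Runx2 (ENSMUSG00000039153, chr17:44495987-44814797) encodes a Runt factor known as the master regulator of bone formation and induced in Schwann cells of injured nerves. For Runx2, wild-type nerves 2, 4 and 5 gave 0.570, 0.953 and 0.805 FPKM, while 1.54, 1.48 and 1.23 FPKM were found in Plekhg5-deficient nerves 2, 3 and 5. The groups did not overlap, and the values of each group lay close together. Wild-type libraries averaged 0.776 ± 0.193 FPKM and Plekhg5-deficient libraries 1.42 ± 0.163 FPKM (SD, n = 3 each), a ratio of 1.82. On the log2 scale the difference was 0.45 (standard error 0.16, 95% interval 0.066 to 0.83), and the adjusted p of 0.938 from limma missed the threshold.

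The tables' own intervals for Runx2 overlapped between all libraries, from 0 to 1.66 FPKM in wild-type nerve 5 and from 0.783 to 2.29 FPKM in Plekhg5-deficient nerve 2. Read as for Olig1, their width would give between 3.55 and 22.4 fragments a library. In no library did this lie within 0.05 of a whole number, so the width cannot be read as a count. The intervals were wide relative to the values, and what makes up their width was not tested. The gene Supt3 overlaps Runx2 and was more abundant, at 8.52, 6.78 and 6.56 FPKM in wild-type and 8.53, 9.54 and 5.80 in Plekhg5-deficient nerves, with overlapping groups. The strand setting of the quantification is likewise unknown. The 7 bone and cartilage markers summed to 2.36 to 3.49 FPKM in wild-type and 1.89 to 3.76 in Plekhg5-deficient nerves, and none was called. The most abundant of them, the cartilage collagen gene Col2a1, was at 1.60, 2.18 and 1.71 FPKM in wild-type and 0.836, 0.766 and 0.688 in Plekhg5-deficient nerves. It lay lower without overlap, opposite to Runx2 (log2 fold change -0.68, adjusted p = 0.630 from limma). Bglap, the osteocalcin gene, ran from 0.222 to 2.17 FPKM with overlapping groups, and Sp7, the osteoblast factor, did not exceed 0.251 FPKM. Ibsp was at 0.246, 0.169 and 0.0881 FPKM in wild-type and 0.109, 1.36 and 0.598 in Plekhg5-deficient nerves. Its groups overlapped, with a log2 fold change of 0.47. Of the 5 markers tested, 3 had a log2 fold change below 0 and 2 above 0. The part of bone or cartilage cells in the Runx2 values was not tested.

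Relatives of Runx2, Olig1 and Pax3 and the Runx cofactor Cbfb gave no call (4 of 6 tested, median log2 fold change -0.042). Runx1 was at 4.82, 4.27 and 2.94 FPKM in wild-type and 4.07, 5.79 and 3.14 in Plekhg5-deficient nerves. It was more abundant than Runx2 in every library, and its groups overlapped. The list gene with the profile nearest to that of Runx2 was Pou3f1, which encodes Oct6, the factor of promyelinating Schwann cells (mean absolute difference 0.13, beside a mean deviation of 0.22 of Runx2). Pou3f1 was at 5.23, 6.56 and 4.12 FPKM in wild-type and 8.19, 8.51 and 6.74 in Plekhg5-deficient nerves, without overlap and with an adjusted p of 0.972 from limma.

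Pax3 (ENSMUSG00000004872, chr1:78101267-78197134), a paired box factor of the neural crest and of early Schwann cells, was at or near 0. Wild-type nerves 2, 4 and 5 were listed at 0.0127, 0 and 0.0472 FPKM and all 3 Plekhg5-deficient nerves at 0. It lay below the minimum of 0.1 FPKM and was not tested, and no fold change is given. Its relative Pax7, a marker of muscle satellite cells, did not exceed 0.0566 FPKM.

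Id2 (ENSMUSG00000020644, chr12:25093801-25096092) encodes a dominant negative helix-loop-helix protein that blocks E proteins and is known as a repressor of the myelin program. For Id2, wild-type nerves 2, 4 and 5 gave 27.3, 19.2 and 67.2 FPKM, while 29.8, 44.8 and 36.7 FPKM were found in Plekhg5-deficient nerves 2, 3 and 5. The highest library was wild-type nerve 5 and the lowest wild-type nerve 4, so that all Plekhg5-deficient values fell inside the wild-type range. The mean ratio was 0.979, while the log2 fold change was 0.15 (standard error 0.45, 95% interval -0.92 to 1.22, adjusted p = 0.993 from limma). The ratio of means and the log2 fold change thus differed in sign. Without single libraries, the log2 fold change ranged from -0.23 (without wild-type nerve 4) to 0.64.

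The other Id genes and the E protein genes gave no call (0 of 6, median log2 fold change -0.39). Id3 was at 56.9, 57.6 and 81.9 FPKM in wild-type and 47.6, 53.4 and 36.0 in Plekhg5-deficient nerves, without overlap, with a log2 fold change of -0.51 and an adjusted p of 0.974 from limma. Id1 was at 9.88 to 17.3 FPKM in wild-type and 11.9 to 20.9 in Plekhg5-deficient nerves. The list gene nearest to Id2 was Runx3, a factor also used by T-cells, which was highest in wild-type nerve 5 (2.09 FPKM) as all 10 T-cell markers were. The part of these cells in the Id2 value of that nerve was not tested.

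Among the adhesion genes, Ncam1 (ENSMUSG00000039542, chr9:49504361-49798922) encodes the neural cell adhesion molecule of immature and Remak Schwann cells. For Ncam1, wild-type nerves 2, 4 and 5 gave 7.96, 8.88 and 6.95 FPKM, while 10.1, 10.5 and 5.49 FPKM were found in Plekhg5-deficient nerves 2, 3 and 5. Plekhg5-deficient nerves 2 and 3 lay above all wild-type values and nerve 5 below them. The log2 fold change was 0.079 (standard error 0.27, 95% interval -0.56 to 0.72, adjusted p = 0.995 from limma). It was below 0 without wild-type nerve 5 (-0.011), Plekhg5-deficient nerve 2 (-0.047) or Plekhg5-deficient nerve 3 (-0.067).

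The list gene nearest to Ncam1 was Scn7a, which marks non-myelinating Schwann cells (mean absolute difference 0.051, beside a mean deviation of 0.24 of Ncam1). Scn7a was at 35.2, 37.8 and 31.8 FPKM in wild-type and 49.7, 45.1 and 26.1 in Plekhg5-deficient nerves. As for Ncam1, Plekhg5-deficient nerves 2 and 3 were highest and nerve 5 was lowest.

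L1cam (ENSMUSG00000031391, chrX:73853778-73896105) encodes an adhesion molecule of axons and of immature and Remak Schwann cells. For L1cam, wild-type nerves 2, 4 and 5 gave 26.6, 19.7 and 7.16 FPKM, while 24.5, 35.4 and 7.04 FPKM were found in Plekhg5-deficient nerves 2, 3 and 5. Both nerves numbered 5 were low, and the highest library exceeded the lowest by 5.03-fold. The log2 fold change was 0.23 (standard error 0.67, 95% interval -1.38 to 1.83, adjusted p = 0.993 from limma), and leaving out single libraries gave -0.30 to 0.87, with values below 0 without wild-type nerve 5 (-0.30) or Plekhg5-deficient nerve 3 (-0.23).

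Neuron markers such as Tubb3 and Nefl were also lowest in both nerves numbered 5 and highest in Plekhg5-deficient nerve 3. Tubb3, a neuronal tubulin gene, was at 259, 90.8 and 3.61 FPKM in wild-type and 135, 449 and 2.88 in Plekhg5-deficient nerves. The neurofilament gene Nefl was at 135, 55.5 and 2.59 FPKM against 64.7, 253 and 0.925. The summed level of the 7 neuron markers was 25.9 to 686 FPKM in wild-type and 14.5 to 1176 in Plekhg5-deficient nerves, and Chat, which marks motor neurons, was listed at 0 in all 6 libraries. Cntn2, an axonal and glial L1 family partner, was the list gene nearest to L1cam (mean absolute difference 0.13, beside a mean deviation of 0.77 of L1cam).

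Several genes of the immature and Remak state were likewise lowest in both nerves numbered 5. Other surface and cytoskeletal genes of this state, such as Vim and Mcam, were not. Itga4 was highest in both nerves numbered 5 (3.76 FPKM in wild-type and 6.27 FPKM in Plekhg5-deficient nerve 5). Gap43 was at 35.6, 16.8 and 5.90 FPKM in wild-type and 26.6, 43.7 and 4.21 in Plekhg5-deficient nerves. Ngfr, the p75 neurotrophin receptor gene, was at 33.0, 20.1 and 6.98 FPKM against 18.1, 28.7 and 4.28. Fabp7, a fatty acid binding protein gene of immature glia, was at 24.6, 11.2 and 1.02 FPKM against 11.0, 47.8 and 0.904. Gap43, Ngfr and Fabp7 are also expressed by neurons or satellite glia of sensory ganglia. Sox10, which all Schwann cells express, was lowest in the same nerves but with a narrower range (51.9 to 145 FPKM). The part of neuronal transcripts in the L1cam values was not tested. Arhgap4, which overlaps L1cam, was at 0.310 to 6.66 FPKM and highest in wild-type nerve 5, where L1cam was low.

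**Figure D4:**
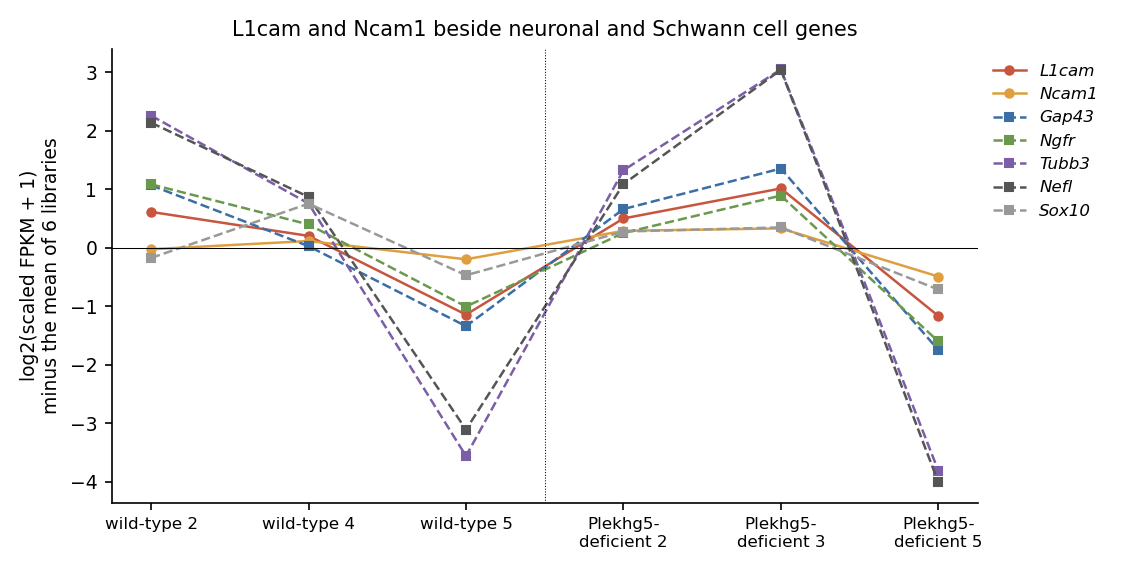
Log2(scaled FPKM + 1) of L1cam, Ncam1 and comparison genes in each library, minus each gene's mean over 6 libraries, with the wild-type libraries left and the Plekhg5-deficient libraries right of the dotted line. L1cam, Gap43, Ngfr, Tubb3 and Nefl are lowest in both nerves numbered 5, and Ncam1 and Sox10 vary less.

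Cdh19 (ENSMUSG00000047216, chr1:110889195-110977372) encodes a cadherin of Schwann cell precursors that adult Schwann cells also express. For Cdh19, wild-type nerves 2, 4 and 5 gave 23.6, 49.2 and 39.0 FPKM, while 56.9, 47.8 and 38.6 FPKM were found in Plekhg5-deficient nerves 2, 3 and 5. The lowest library was wild-type nerve 2, and the remaining values of the groups overlapped. The mean ratio was 1.28 (log2 fold change 0.39, standard error 0.30, 95% interval -0.32 to 1.11, adjusted p = 0.974 from limma). Summed Schwann cell lineage markers were 3591 to 5975 FPKM in wild-type and 3377 to 6278 in Plekhg5-deficient nerves, and none of the 6 was called. The list gene nearest to Cdh19 was Gjc3, a connexin gene of glia (mean absolute difference 0.12, beside a mean deviation of 0.31 of Cdh19).

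Relatives and partners of the adhesion genes gave no call (0 of 17, median log2 fold change -0.091), and the genotypes overlapped for all 17. Cdh2, which encodes N-cadherin of immature Schwann cells, was at 13, 22.4 and 12.1 FPKM in wild-type and 14.9, 14.1 and 5.02 in Plekhg5-deficient nerves (log2 fold change -0.52, adjusted p = 0.974 from limma). The most abundant genes of this list were the catenin genes Ctnnb1, Ctnna1 and Ctnnd1, which link cadherins to actin.

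Clcf1 (ENSMUSG00000040663, chr19:4214238-4223490) encodes a cytokine of the Cntf family that signals through the Cntf receptor. For Clcf1, wild-type nerves 2, 4 and 5 gave 0.835, 0.891 and 5.04 FPKM, while 0.998, 1.36 and 1.24 FPKM were found in Plekhg5-deficient nerves 2, 3 and 5. A high value was found in wild-type nerve 5 alone, and the other wild-type nerves lay below every Plekhg5-deficient value. The log2 fold change was -0.33 (standard error 0.47, 95% interval -1.44 to 0.79, adjusted p = 0.980 from limma). Its sign rested on wild-type nerve 5, without which it was 0.23. Of the 66-base stretches of Clcf1, 6.31% are shared with AC109138.7, a gene of a later annotation.

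That library was also the highest for all 10 T-cell and all 5 B-cell markers. Summed T-cell markers were at 6.18, 6.93 and 137 FPKM in wild-type and 3.16, 5.31 and 10.9 in Plekhg5-deficient nerves. Summed B-cell markers were at 3.63, 2.69 and 114 FPKM against 2.03, 3.47 and 5.60. The part of lymphocytes in the Clcf1 value was not tested. Junb, an early response gene, had the profile nearest to Clcf1 (mean absolute difference 0.19, beside a mean deviation of 0.43 of Clcf1) and was likewise highest in wild-type nerve 5, at 7.23 FPKM.

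The Clcf1 receptor and signaling genes together gave no call (0 of 12, median log2 fold change -0.011). Cntfr, the receptor chain that binds Clcf1 and Cntf, was at 18.7, 27.2 and 24.4 FPKM in wild-type and 16.3, 22.8 and 18.2 in Plekhg5-deficient nerves. Cntf, a cytokine of mature myelinating Schwann cells, was at 460, 873 and 560 FPKM against 906, 745 and 497. The shared receptor chains Lifr and Il6st also overlapped between genotypes. Osmr, the oncostatin M receptor gene, did not overlap (10.6, 11.0 and 9.92 FPKM in wild-type, 15.9, 13 and 16.4 in Plekhg5-deficient nerves) and had a log2 fold change of 0.48 with an adjusted p of 0.923 from limma.

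**Figure D5:**
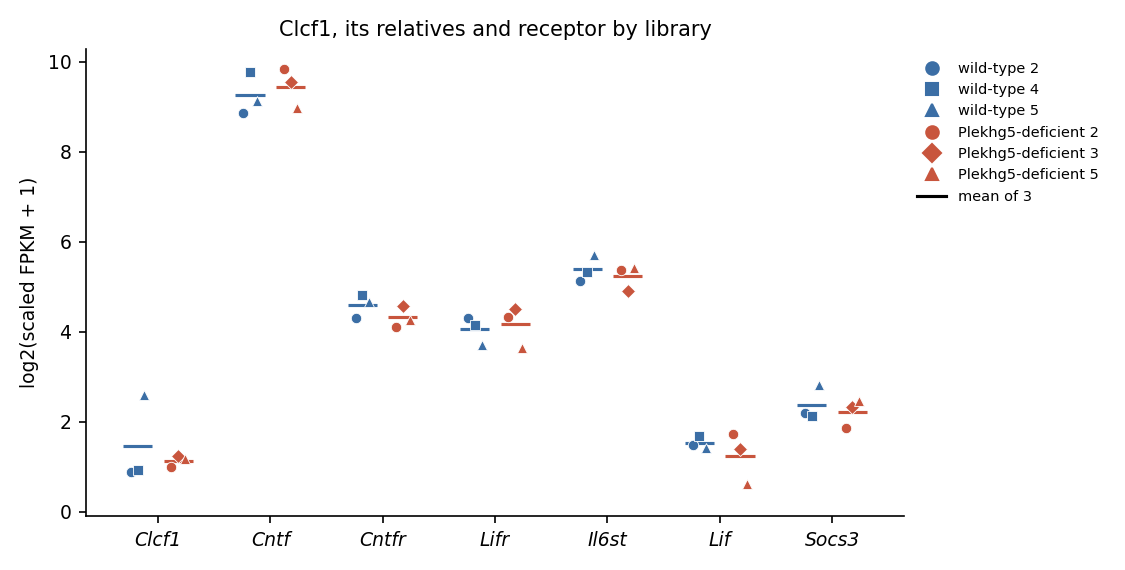
Clcf1 and genes of the same cytokine and receptor family in each library as log2(scaled FPKM + 1), with blue for wild-type, red for Plekhg5-deficient nerves and a bar for the mean of 3. Clcf1 is high in wild-type nerve 5 alone, and the genotypes overlap for the genes shown.

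Beyond the members, 44 further genes of immature, repair and non-myelinating Schwann cells were followed, of which 43 were tested. None was called over all genes, and the median log2 fold change was 0.022, with 20 below 0 and 23 above 0. An unadjusted p under 0.05 was reached by 3 lower and 2 higher genes. The genotypes did not overlap for 5 lower genes, among them Egr1, Egr3, Id3 and Olig2, and 4 higher genes, among them Hmga2, Ucn2 and Mcam. Hmga2 passed the minimum of 0.1 FPKM through the Plekhg5-deficient nerves alone and Olig2 through the wild-type nerves alone, so that these counts are a description. Such separation was found for 11.6% of all genes tested in either direction.

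Of 19 other transcription factors tested, the median log2 fold change was -0.10. Egr1, an early response factor of immature Schwann cells, was at 10.3, 30.0 and 14.0 FPKM in wild-type and 6.15, 6.52 and 6.01 in Plekhg5-deficient nerves (log2 fold change -1.27, adjusted p = 0.785 from limma). The Plekhg5-deficient values lay close together and below all wild-type values. Egr1 and Fosb also belong to the genes known to respond to tissue handling, a list of 9 of which 8 had a log2 fold change below 0 and none was called. Sox2, which holds Schwann cells in the immature state, was at 1.0 to 1.77 FPKM in wild-type and 1.24 to 1.85 in Plekhg5-deficient nerves, so that the groups overlapped.

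The 12 other secreted factors had a median log2 fold change of 0.12. Ucn2, a peptide of the corticotropin-releasing factor family, was at 0.117, 0.232 and 0.364 FPKM against 1.07, 2.25 and 1.09, a mean 6.18-fold higher (log2 fold change 0.97, adjusted p = 0.573 from limma). Its genotypes did not overlap. The defining repair factors Gdnf and Shh overlapped. Shh was at 7.80, 6.36 and 2.01 FPKM in wild-type and 7.24, 13.5 and 3.54 in Plekhg5-deficient nerves, and Gdnf stayed at or below 0.684 FPKM. Like L1cam and the neuron markers Tubb3 and Nefl, Shh was lowest in both nerves numbered 5 and highest in Plekhg5-deficient nerve 3. The part of neuronal transcripts in the Shh values was not tested.

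The 12 other surface and cytoskeletal genes had a median log2 fold change of 0.16. Mcam, an adhesion molecule of the immunoglobulin family, was at 23.3, 21.5 and 22.6 FPKM in wild-type and 28.3, 32.8 and 24.2 in Plekhg5-deficient nerves (log2 fold change 0.32, adjusted p = 0.974 from limma). It was the 1 gene of this list without overlap.

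The opposite state was measured with 14 genes of promyelinating and myelinating Schwann cells, of which none was called and the median log2 fold change was 0.24. The genotypes did not overlap for 3 genes, among them Ncmap and Pou3f1, which were higher in Plekhg5-deficient nerves. Pou3f1, as given above, belongs to promyelinating cells and does not mark the mature state. Of all genes tested, 5.69% were higher without overlap. Ncmap, a gene of the non-compact myelin, was at 152, 290 and 302 FPKM in wild-type and 480, 456 and 358 in Plekhg5-deficient nerves (log2 fold change 0.85, adjusted p = 0.959 from limma). Proliferation markers, which rise when Schwann cells divide after injury, gave 0 calls among 7. All 7 had a log2 fold change above 0 (median 0.44) and all 7 were highest in Plekhg5-deficient nerve 5, which was also the highest library for all 7 erythroid markers. Without that nerve, 5 of the 7 were above 0 and 2 below, with a median of 0.11. The part of blood cells in these values was not tested.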

How the data were processed

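RNA sequencing of sciatic nerves from 3 wild-type and 3 Plekhg5-deficient mice was used. The authors trimmed reads with Trim Galore 0.4.0, removed 9 bases from read starts, mapped them with STAR to GRCm38 and estimated FPKM per gene and library with Cufflinks 2.2.1 (versions per the submitters' processing notes). The deposited tables hold FPKM with 95% intervals and no counts. Depth, annotation release and strand setting: not given in the sources used here.

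Each library's FPKM were scaled by a median-of-ratios factor. A gene was tested where 1 genotype averaged 0.1 FPKM or more. With limma 3.58.1 (R 4.3.3), log2(FPKM + 1) was modelled on genotype alone, the variance followed the mean, p was adjusted by Benjamini-Hochberg over all 21285 genes, and an adjusted p under 0.05 made a call. The fit was tested on simulated data. Figures were drawn with matplotlib 3.10.9. Promoters are from RefSeq (GRCm38.p6), and 4 of the 9 members were matched.

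Members and 28 comparison lists were chosen with earlier results of these data known. The text names the members, Plekhg5, the most abundant genes of lists, the gene nearest each member and genes that overlap a member. Not all of these, or of the genes counted in a list, are reported here. Other genes were chosen after their values were seen: Olig2, Mog, Mobp, Opalin, Ermn, Fosb, Egr1, Egr3, Ucn2, Hmga2, Osmr, Ncmap, Id1, Sp7, Chat, Gap43, Ngfr, Fabp7, Itga4, Nefl, Sox2, Sox10, Gdnf, Pax7, Cdh2, Cntfr and Lifr. Alternatives were FPKM as deposited, a pseudocount of 0.1, a minimum of 1 FPKM or none, other variance settings, a replicate block, and leaving out libraries.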

Additional observations from a re-analysis of the deposited data

How the results depend on the processing

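No member was called under any alternative, and Jun, Olig1, Runx2 and Cdh19 kept their direction under all that gave a value. Olig1 ranged from -3.04 (pseudocount 0.1) to -0.84 and Runx2 from 0.36 to 0.81, with adjusted p of Olig1 from limma between 0.321 and 1.0. Id2, Ncam1, L1cam and Clcf1 changed sign, and the cause was not tested. With FPKM as deposited Id2 was -0.011 and Ncam1 -0.061. Without both nerves numbered 5 Clcf1 was 0.22. Leaving out single libraries gave -0.23 to 0.64 for Id2, -0.067 to 0.34 for Ncam1, -0.30 to 0.87 for L1cam and -0.61 to 0.23 for Clcf1. The members' median of 0.11 was 0.29 without both nerves numbered 5 and -0.11 to 0.24 without single libraries, with -0.11 without Plekhg5-deficient nerve 3. This median was also below 0 with FPKM as deposited (-0.036) and with the replicate block (-0.050). Over all genes, 2 lower calls became 1 with a pseudocount of 0.1, 1 with a minimum of 1 FPKM, 0 with no filter, 0 without both nerves numbered 5 and 0 to 0 without single libraries. The 6 higher calls became 2 with no filter, 9 without both nerves numbered 5 and 0 to 5 without single libraries. Leaving out Plekhg5-deficient nerve 5 for the proliferation genes was chosen after seeing the data. Plekhg5 kept its direction, and its adjusted p from limma was 0.138 with no filter, 0.0790 without both nerves numbered 5 and 0.0763 to 0.268 without single libraries.

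The genotypes share the numbers 2 and 5. Deviations from the genotype means correlated at 0.073 between the nerves numbered 2 and at 0.58 between those numbered 5, and nothing in the labels says what a number marks. A replicate block on the number gave 0 lower and 0 higher calls, with Id2 at -0.37, L1cam at -0.067 and Plekhg5 at -2.30 (adjusted p = 0.892 from limma). A number found in a single genotype adds nothing to the genotype difference in this fit, which rests on the nerves numbered 2 and 5. It had very little power, since not even Plekhg5 was called, so the absence of calls decides nothing.

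With read depth unknown, the precision of low genes such as Pax3, Olig1 and Runx2 is known only from the tables' intervals. Nothing in the labels or titles says that the nerves of a genotype came from separate litters, and the p-values measure the spread between these 6 libraries.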
